A study of Mus musculus with 6 samples.

Results

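The genes described here are 10 genes for the surface sensing of bacteria in cell-sorted peritoneal macrophages (PMs): the Toll-like receptors Tlr1, Tlr2, Tlr4, Tlr5 and Tlr6, the LPS co-receptors Cd14 and Ly96, the Tlr4-related receptor Cd180, and the secreted binding proteins Lbp and Pglyrp1. They were chosen by gene name from 32879 genes with a matched RefSeq record, and not by their values in a given mouse, although Pglyrp1 and Lbp are also among the genes that the study lists as changed in these same libraries. RNA of PMs was sequenced from 3 controls and from 3 diseased-BWF1 animals, with 1 library for each. Control mice were female F1 offspring of New Zealand white and BALB/c parents, labelled as not susceptible to lupus, and were 33, 33 and 30 weeks old. Diseased-BWF1 mice were female F1 offspring of New Zealand black and New Zealand white parents, with antibodies to double-stranded DNA and severe proteinuria, and were 31, 31 and 34 weeks old. All of the mice have a New Zealand white parent, and the groups differ in the other parental strain as well as in disease, so strain and disease cannot be told apart. PMs were sorted as F4/80+ CD11b high cells, and RNA was taken from the sorted cells.

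LPS, the outer membrane lipid of Gram-negative bacteria, is passed along a chain of proteins. The secreted protein LBP hands it to CD14 on the cell surface, which loads it on MD-2 (the product of Ly96) bound to TLR4. TLR2 recognizes bacterial lipopeptides as a pair with TLR1 or with TLR6, and TLR5 recognizes flagellin. CD180 resembles TLR4 but lacks its signalling domain and pairs with MD-1 (the product of Ly86), and PGLYRP1 is a secreted protein that binds peptidoglycan of the bacterial cell wall.

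Each library held between 3629901 and 5003360 counts, and 3 counts in a library correspond to 0.652 to 0.888 CPM (counts scaled to the library total on genes), a floor for counting error only. The correlation of log2 counts between libraries of a group was 0.928 to 0.961 in control mice and 0.944 to 0.951 in diseased-BWF1 mice, and control mouse 3 was the library least like the others of its group (0.928 and 0.931). As a check of the sorted cells, Adgre1, the gene for F4/80, had 8093, 8233 and 8562 normalized counts in control mice and 7304, 7746 and 7060 in diseased-BWF1 mice. None of 11 markers of large peritoneal macrophages passed the test between groups (edgeR). Groups did not overlap for 3 of them that were lower in diseased-BWF1 mice, Adgre1, Timd4 (log2 fold change -0.53, unadjusted p = 0.0359) and Icam2 (-0.55, unadjusted p = 0.0109), and for 1 that was higher, Prg4 (0.29). Over all genes, 11.2% were lower and 9.59% higher without overlap. The part of these markers in the differences given here was not tested. Mrc1, the gene for CD206, had 2250, 2207 and 2242 normalized counts in control mice and 1030, 841 and 1310 in diseased-BWF1 mice.

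Of the 10 genes, 9 passed the filter on low counts, and only Pglyrp1 passed the test, which asked for an adjusted p under 0.05 (edgeR, Benjamini-Hochberg over 10505 genes) and a fold change of at least 1.5. Over all genes tested, 1.22% passed in either direction, 0.400% as higher and 0.819% as lower in diseased-BWF1 mice. Pglyrp1 passed the filter through the diseased-BWF1 mice alone. A filter of at least 10 counts in every library dropped it, and then 0 of the genes passed. With DESeq2, 3 of the genes passed (Pglyrp1, Lbp and Tlr1), against 3.07% of 12036 genes. The unadjusted edgeR p was under 0.05 for 5 of the 9 genes, against 13.2% of all genes. Of these, 3 were higher, against 5.62%, and 2 were lower, against 7.57%. The groups of mice did not overlap for 3 genes that were higher in diseased-BWF1 mice (Pglyrp1, Lbp and Cd14), where 9.59% of all genes had such groups. They did not overlap for 2 genes that were lower (Tlr1 and Tlr4), where 11.2% of all genes had such groups. The median log2 fold change of the 9 genes was -0.21, and that of all genes tested was 0.01. Pglyrp1 and Lbp are not independent evidence here, since they were known to differ in these libraries. In sorted bulk cells, a change in the share of cells that make an RNA and a change in RNA per cell cannot be told apart.

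**Figure D1:**
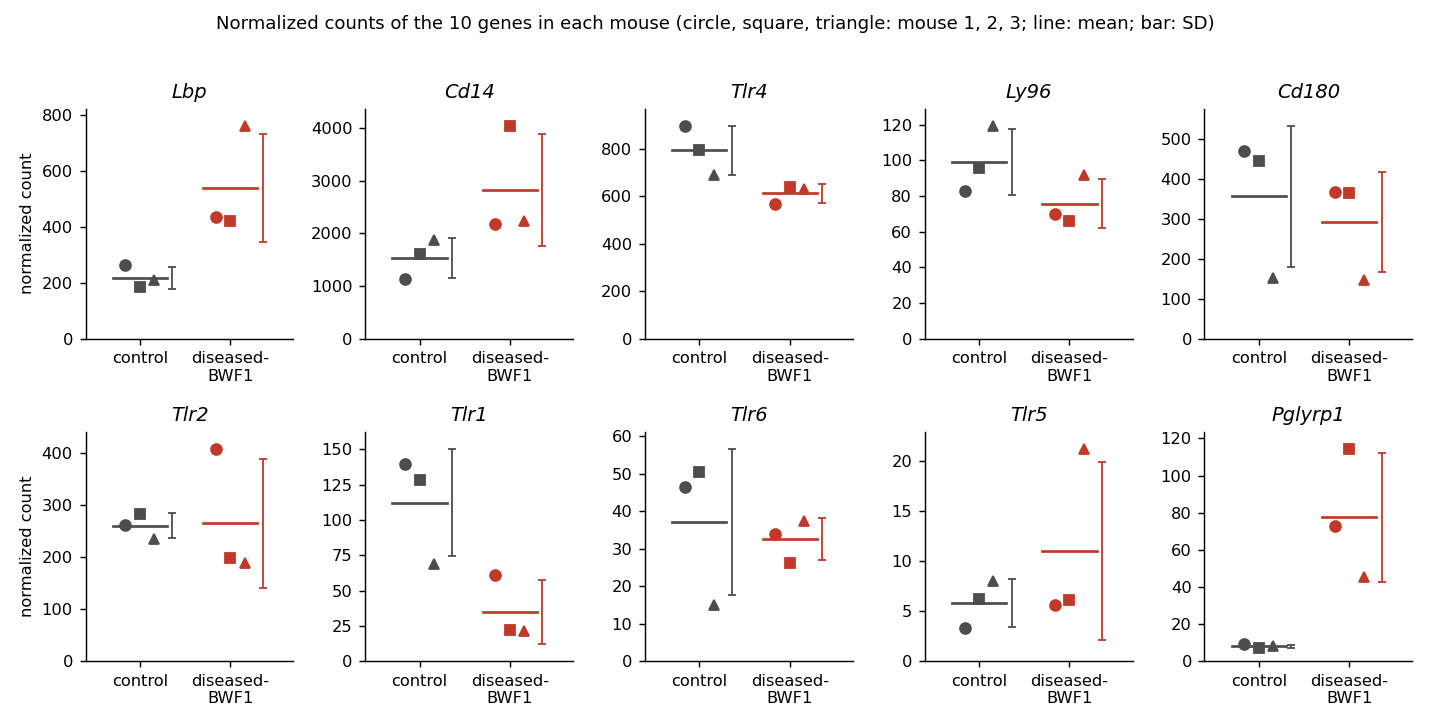
Normalized counts (y axis, from 0, with its own scale for each gene) of the 10 genes in 3 control mice (grey) and 3 diseased-BWF1 mice (red), with the group mean as a line and the SD as a bar. For Lbp, Cd14 and Pglyrp1 every red point lies above every grey point, for Tlr4 and Tlr1 every red point lies below, and the groups overlap for the other 5 genes.

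The promoter of Pglyrp1 and the sequence that Tlr1 shares with Tlr6 are shown for context. Pglyrp1 was the gene that rose, although no measurement here bears on its promoter, and the shared sequence is where reads of Tlr1 and Tlr6 cannot be told apart by their letters. The promoter window of Pglyrp1 (RefSeq, GRCm38.p6, plus strand, chr7:18884440-18884739) runs from 250 bases before the gene's start to 50 bases into it. Capitals mark a match to the NF-kB motif, on the minus strand and 93 bases before the start, and matches to the PU.1 motif GAGGAAG on the plus strand at 113 bases and on the minus strand at 63 bases before the start. No matches overlap.
Pglyrp1 promoter: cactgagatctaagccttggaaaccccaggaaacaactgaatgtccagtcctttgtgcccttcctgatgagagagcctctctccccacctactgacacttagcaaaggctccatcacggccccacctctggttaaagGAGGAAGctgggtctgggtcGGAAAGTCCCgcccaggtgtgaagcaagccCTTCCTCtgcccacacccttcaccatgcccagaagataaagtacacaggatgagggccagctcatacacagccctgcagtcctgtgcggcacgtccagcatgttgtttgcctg

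The NF-kB motif was searched on both strands with its variable bases left free. It occurred in 1.63% of 32851 promoter windows of the same length, and the PU.1 motif occurred in 13.6%. Windows were matched for 6 of the 10 genes (Pglyrp1, Tlr1, Tlr2, Tlr5, Tlr6 and Cd180). Among these, Pglyrp1 alone held the NF-kB letters, and Tlr1 also held the PU.1 letters. A match of letters is not evidence that a factor binds there.

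Tlr1 (chr5:64924680-64933600) and Tlr6 (chr5:64953092-64970942) lie on the minus strand of chromosome 5, 19491 bases apart with no annotated gene between them. Their transcripts share 4 runs of at least 75 bases, the read length of the libraries, with 636 bases in all, and every run is in the coding sequence of both genes. The longest run and the run next to it, separated by 1 base, are printed from the GENCODE vM21 transcripts, 5′ to 3′ along the genes. The 119-base run is at chr5:64925767-64925885 in Tlr1 and chr5:64954058-64954176 in Tlr6, and the 229-base run is at chr5:64925537-64925765 in Tlr1 and chr5:64953828-64954056 in Tlr6.
Tlr1 and Tlr6, run of 119 bases: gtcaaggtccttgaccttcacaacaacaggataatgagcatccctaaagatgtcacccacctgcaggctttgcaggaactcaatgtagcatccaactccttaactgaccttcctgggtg
Tlr1 and Tlr6, run of 229 bases: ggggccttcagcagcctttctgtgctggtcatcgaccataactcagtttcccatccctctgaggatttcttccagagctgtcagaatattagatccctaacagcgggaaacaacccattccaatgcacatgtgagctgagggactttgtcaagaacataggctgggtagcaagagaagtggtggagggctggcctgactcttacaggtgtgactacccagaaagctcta

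Of the 75-base windows in Tlr1 transcripts, 11.2% also occur in Tlr6, and 9.25% of those of Tlr6 occur in Tlr1. Cd180 shares 2.47% of its windows with Mast4, which overlaps it on the opposite strand. The other 7 genes share no such window with another annotated gene.

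Positions of genes are those of RefSeq on GRCm38.p6. Lbp (chromosome 2, 158306493 to 158332852), the carrier that brings LPS to CD14, had 261, 184 and 208 normalized counts in control mice 1, 2 and 3, and 433, 421 and 759 in diseased-BWF1 mice 1, 2 and 3. The groups did not overlap, and diseased mouse 3 was the highest. The log2 fold change was 1.30 (standard error 0.26, 95% interval 0.69 to 1.91), with an adjusted p of 0.073 (edgeR). The gene therefore missed the threshold, and it passed with DESeq2 (adjusted p = 0.000567). Without diseased mouse 3, the log2 fold change was 0.97.

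Cd14 (chromosome 18, 36725064 to 36726815), the co-receptor that receives LPS from LBP, had 1129, 1602 and 1865 normalized counts in control mice and 2178, 4038 and 2238 in diseased-BWF1 mice. The groups did not overlap, although control mouse 3 and diseased mouse 1 were close, and diseased mouse 2 was well above the rest. The log2 fold change was 0.88 (standard error 0.30, 95% interval 0.18 to 1.57, adjusted p = 0.263, edgeR). It was 0.53 without diseased mouse 2, and Cd14 did not pass the test under any setting tried.

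Tlr4 (chromosome 4, 66827551 to 66846581), the signalling receptor of the LPS complex, had 895, 795 and 690 normalized counts in control mice and 566, 640 and 629 in diseased-BWF1 mice. Every diseased-BWF1 mouse was below every control mouse, by a small margin. The log2 fold change was -0.38 (standard error 0.14, 95% interval -0.70 to -0.05, adjusted p = 0.299, edgeR). Ly96 (chromosome 1, 16688456 to 16709605), for the LPS-binding subunit MD-2, had 82.7, 95.7 and 119 normalized counts in control mice and 69.9, 65.8 and 91.8 in diseased-BWF1 mice, so the groups overlapped. Its log2 fold change was -0.39 (95% interval -0.88 to 0.10, adjusted p = 0.485, edgeR), close in value to that of Tlr4.

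Within each library, Cd14 can be set against Tlr4 as a ratio that does not depend on the scaling between libraries. Per transcript length, the level of Cd14 was 3.13, 5 and 6.71 times that of Tlr4 in control mice and 9.57, 15.7 and 8.83 times in diseased-BWF1 mice. The ratio of Lbp to Tlr4 was 0.472, 0.374 and 0.486 in control mice and 1.24, 1.06 and 1.95 in diseased-BWF1 mice. The groups did not overlap for these ratios. This follows from the counts above, where Cd14 and Lbp were higher and Tlr4 lower in every diseased-BWF1 mouse, and adds no evidence. The ratio of Ly96 to Tlr4 was 0.596, 0.776 and 1.12 in control mice and 0.797, 0.663 and 0.941 in diseased-BWF1 mice, with groups that overlapped. These ratios were chosen after the values were seen and have no test.

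Cd180 (chromosome 13, 102693547 to 102706631) had 472, 445 and 153 normalized counts in control mice and 367, 365 and 148 in diseased-BWF1 mice. In each group mouse 3 had less than the other two, and this spread was wider than the difference between the groups. The log2 fold change was -0.28 (95% interval -1.40 to 0.83, adjusted p = 0.844, edgeR). Its sign turned without diseased mouse 3 (0.04), and it was -0.64 without control mouse 3. Ly86, for the partner MD-1, had 504, 493 and 587 normalized counts in control mice and 533, 519 and 433 in diseased-BWF1 mice (log2 fold change -0.10, adjusted p = 0.823, edgeR) and did not share the low values of Cd180 in mouse 3 of the control group. B cells also express Cd180, and the 9 B cell markers with a matched record summed to 18.5 to 32.3 normalized counts per control mouse and 10.1 to 18.2 per diseased-BWF1 mouse.

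Tlr2 (chromosome 3, 83836272 to 83841824), the shared partner of the lipopeptide receptors, had 263, 284 and 235 normalized counts in control mice and 409, 199 and 190 in diseased-BWF1 mice. Diseased mouse 1 was above all control mice, and the other two were below them. The log2 fold change was 0.03 (95% interval -0.68 to 0.73, adjusted p = 0.984, edgeR), and it was -0.43 without diseased mouse 1. A difference of up to about 1.5-fold in either direction is therefore within the interval.

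Tlr1, the partner of TLR2 for triacylated lipopeptides, had 140, 129 and 68.9 normalized counts in control mice and 61.4, 22.3 and 21.2 in diseased-BWF1 mice. The groups did not overlap, but the lowest control mouse and the highest diseased mouse were close. The log2 fold change of -1.68 (standard error 0.46, 95% interval -2.76 to -0.60) was the largest decrease among the 10 genes. It did not pass the test with edgeR (unadjusted p = 0.0076, adjusted p = 0.17), while DESeq2 gave an adjusted p of 0.0231. The direction was the same with each mouse left out, from -2.38 to -1.42.

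Tlr6, the partner of TLR2 for diacylated lipopeptides, had 46.3, 50.4 and 14.9 normalized counts in control mice and 34.0, 26.3 and 37.3 in diseased-BWF1 mice. Control mouse 3 was the lowest of all, and the groups overlapped (log2 fold change -0.21, 95% interval -1.21 to 0.79, adjusted p = 0.876, edgeR). With Tlr1 and Tlr6 summed into 1 feature, a choice made after the data were seen, the log2 fold change was -1.15 (adjusted p = 0.233, edgeR). Per length, the ratio of Tlr1 to Tlr6 was 3.67, 3.10 and 5.61 in control mice and 2.19, 1.03 and 0.690 in diseased-BWF1 mice. Whether reads moved between Tlr1 and Tlr6 when they were assigned was not tested.

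The counts of Tlr1 were spread over 8 RefSeq records of the gene, 2 of them curated and 6 predicted. The curated records held 6.51%, 39.2% and 55.0% of the gene's counts in control mice and 63.1%, 0% and 0% in diseased-BWF1 mice, so no single record represents the gene. Curated records alone gave 11, 49 and 33 counts in control mice and 41, 0 and 0 in diseased-BWF1 mice, for which the edgeR log2 fold change was -1.29 at an adjusted p of 0.849. For Tlr4, Lbp, Cd14, Cd180 and Pglyrp1 all counts were on 1 curated record, and for Ly96 on 2.

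Tlr5 (chromosome 1, 182954752 to 182976044), the flagellin receptor, was below the filter. It had 4, 6 and 7 counts in control mice and 6, 6 and 21 in diseased-BWF1 mice. In a fit that kept all genes with counts, the log2 fold change was 0.90 (95% interval -0.50 to 2.30, adjusted p = 0.705, edgeR), and it was 0.02 without diseased mouse 3. No difference in Tlr5 was detected, and the interval is wide.

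Pglyrp1 (chromosome 7, 18884690 to 18890438) had 9.10, 7.20 and 8.04 normalized counts in control mice, from 7 to 11 counts per library, and 72.7, 114 and 45.4 in diseased-BWF1 mice. The gene passed the filter on low counts through the diseased mice alone. The lowest diseased mouse was well above the highest control mouse, and the diseased mice differed among themselves by more than the control mice did. The gene rose by a log2 fold change of 3.23 (standard error 0.40, 95% interval 2.28 to 4.17, adjusted p = 0.0192, edgeR). Fits with 1 mouse omitted gave log2 fold changes from 2.84 to 3.50, and their adjusted p was under the threshold only without diseased mouse 2 (0.0406) or diseased mouse 3 (0.0185) and 0.0683 to 0.0966 without each of the other 4 mice. With DESeq2 the adjusted p was 1.21e-07. Its relatives had almost no counts. Pglyrp3 and Pglyrp4 had 0 counts in every library, and Pglyrp2 had at most 1.

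Pglyrp1 is known as a protein of neutrophil granules. Of 14 neutrophil markers, Mpo, Retnlg and Ly6g had 0 counts in every library, Ngp and Camp had at most 1 count in a library, and S100a8 had 6.62 to 17.1 normalized counts. Cebpe had 1, 2 and 0 counts in control mice and 4, 4 and 3 in diseased-BWF1 mice, and Mmp8 had 0, 2 and 4 against 0, 0 and 0. The 14 markers summed to 313 to 720 normalized counts in control mice and 484 to 556 in diseased-BWF1 mice, mostly from Prtn3 (277 to 682), and none of the 3 that were tested passed. Markers of small peritoneal macrophages, monocytes and dendritic cells summed to 83.8 to 168.7 in control mice and 236 to 418.3 in diseased-BWF1 mice, a list of 10 genes of which 4 were tested. None passed with edgeR, and 1 passed as higher with DESeq2, where 1.06% of all genes did. All 4 had positive log2 fold changes, with a median of 1.38, where 50.9% of all genes tested were positive. Without the low-count filter (edgeR), the log2 values of the other 6 were -1.86 (Ly6c2), -0.89 (Flt3), -0.81 (Itgax), 0.00 (Clec9a), 0.08 (Xcr1) and 0.38 (Cd226). Each of these 6 rests on at most 12 counts in a library. Most of the sum in diseased-BWF1 mice came from Irf4 (59.8 to 199) and Nr4a1 (88.8 to 151). Nr4a1, an immediate early gene, had 38.1, 58.6 and 12.6 normalized counts in control mice and 142, 151 and 88.8 in diseased-BWF1 mice (log2 fold change 1.79, adjusted p = 0.149 with edgeR and 0.0113 with DESeq2). The log2 values of Ccr2, Irf4 and Zbtb46 were 1.43, 1.32 and 0.41, with groups that overlapped. Ly6c2 had 1 count in control mouse 1 and 0 in the other mice. The part of these cells in the differences given here was not tested.

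**Figure D2:**
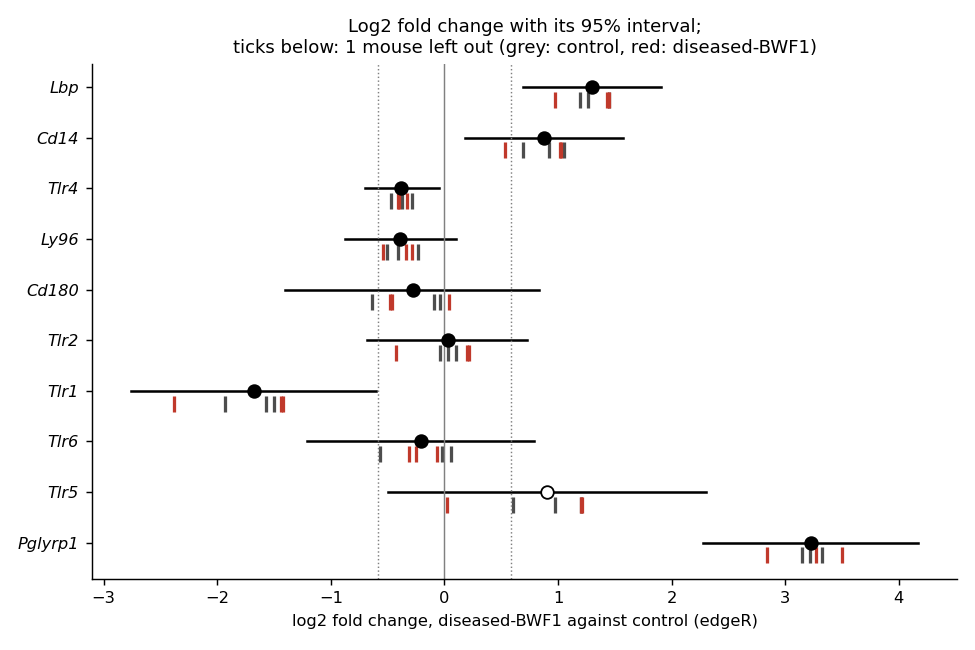
Log2 fold change of diseased-BWF1 against control mice (x axis, edgeR) for the 10 genes, with the 95% interval as a line, an open circle for Tlr5, which was below the filter, dotted lines at 1.5-fold, and ticks for the value with 1 mouse left out. The interval of Pglyrp1 (2.28 to 4.17) lies beyond 1.5-fold, and the ticks of Tlr2, Tlr6 and Cd180 fall on both sides of 0.

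Levels of different genes were compared as CPM per kilobase of transcript. In control mice, Cd14 was the highest at 241 ± 56.7 (SD, n = 3), above Tlr4 at 50.4 ± 7.01. Ly96 (40.6 ± 7.38) and Cd180 (34.8 ± 17.4) followed, and these 3 neighbours were within the spread of the mice. Tlr2 (22.4 ± 2.01) and Lbp (22.3 ± 4.39) were level, Tlr1 stood at 9.62 ± 3.31, and Pglyrp1 (3.03 ± 0.398) and Tlr6 (2.62 ± 1.36) were near each other. Tlr5 was last at 0.471 ± 0.189.

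In diseased-BWF1 mice the order differed at Lbp and Pglyrp1. Cd14 was again the highest at 455 ± 164 (SD, n = 3), and Lbp (56.6 ± 19.9) came next. It was above Tlr4 (39.9 ± 1.92) in every diseased-BWF1 mouse, though the means differed by less than the SD of Lbp. Ly96 (31.9 ± 5.77), Pglyrp1 (29.7 ± 13.0), Cd180 (29.5 ± 12.8) and Tlr2 (23.6 ± 11.5) could not be ordered beyond the spread. Tlr1 (3.10 ± 2.09) and Tlr6 (2.36 ± 0.424) were close, and Tlr5 was at 0.910 ± 0.728. Over all 6 mice, Cd14 ranked at percentile 98.4 of 10186 tested genes with a known transcript length, Tlr4 at percentile 88.3, Tlr1 at 37.5 and Tlr6 at 14.1. These ranks pool the groups, so that of Tlr1, at 9.62 in control and 3.10 in diseased-BWF1 mice, describes neither group alone.

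**Figure D3:**
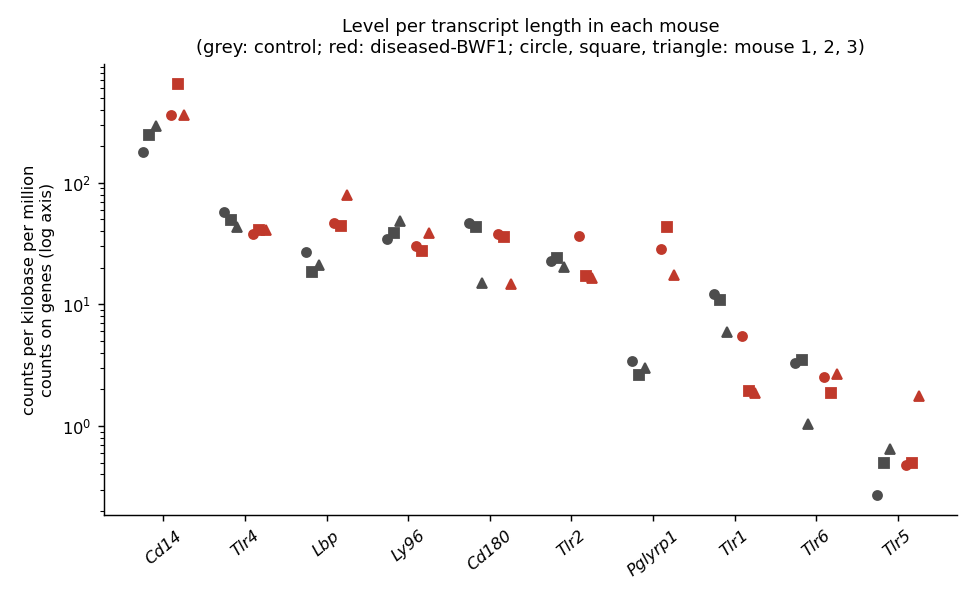
CPM per kilobase of transcript (y axis, log scale) in each mouse, for the 10 genes in order of their mean over all mice, with control mice in grey and diseased-BWF1 mice in red. Pglyrp1 moves from the level of Tlr6 in control mice (about 3.03) to that of Cd180 in diseased-BWF1 mice (29.7).

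The genes around the 10 receptors and binding proteins were described from 7 lists by their counts and medians, and there a gene passed or did not by edgeR unless DESeq2 is named. Among the other Toll-like receptors, 1 of 4 tested genes passed, and it was lower, where 0.819% of all genes passed as lower. Tlr8, a sensor of RNA in endosomes, had 1285, 1168 and 1274 normalized counts in control mice and 651, 594 and 794 in diseased-BWF1 mice (log2 fold change -0.87, adjusted p = 0.045, edgeR). With any of the 6 mice left out, with the replicate number as a block or with age as a covariate, 0 genes of this list passed. Tlr7, another endosomal RNA sensor, had a log2 fold change of -0.88 with an adjusted p of 0.229, and Tlr13, which recognizes bacterial ribosomal RNA, one of -0.25 with an adjusted p of 0.625. The other tested gene, Tlr3, went the other way (log2 fold change 0.81, adjusted p = 0.709, edgeR), with groups that overlapped. It had 91.8, 30.9 and 3.45 normalized counts in control mice and 62.3, 66.8 and 98.8 in diseased-BWF1 mice. Tlr9, Tlr11 and Tlr12 were below the filter.

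None of the 10 tested partners and chaperones passed, and their median log2 fold change was -0.12. The smallest p of this list belonged to Trem1, an activating receptor for which PGLYRP1 is a known ligand. It had 6.62, 4.11 and 5.74 normalized counts in control mice and 20.8, 26.3 and 61.5 in diseased-BWF1 mice (log2 fold change 2.67, 95% interval 1.46 to 3.89, adjusted p = 0.0686 with edgeR and 0.00343 with DESeq2). Like Pglyrp1, Trem1 passed the filter on low counts through the diseased-BWF1 mice alone. Nrros, which binds Toll-like receptors in the endoplasmic reticulum, had 556, 548 and 566 normalized counts in control mice and 441, 424 and 415 in diseased-BWF1 mice (log2 fold change -0.39, adjusted p = 0.178, edgeR). Cnpy3, a chaperone for the folding of surface Toll-like receptors, had 437, 457 and 470 against 354, 398 and 371 (log2 fold change -0.28, adjusted p = 0.345, edgeR).

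Of 27 adaptors, kinases and NF-kB genes, all were tested and none passed, with a median log2 fold change of 0.05 and a range from -0.38 to 0.74. The smallest p values belonged to Traf3 (log2 fold change 0.74, adjusted p = 0.211, edgeR), Irak2 (0.47, adjusted p = 0.331) and Nfkb1 (0.31, adjusted p = 0.424). Among 18 tested inhibitors of the pathway none passed, with a median of 0.06. Nlrc3, which restrains signalling through TRAF6, had 155, 158 and 78.1 normalized counts in control mice and 63.3, 45.6 and 50.4 in diseased-BWF1 mice (log2 fold change -1.30, adjusted p = 0.103 with edgeR and 0.0121 with DESeq2). Tnip1, a partner of the deubiquitinase A20, stood at 0.45 on the log2 scale (adjusted p = 0.175, edgeR), and Irak3, a kinase-like inhibitor, at 0.55 (adjusted p = 0.409, edgeR).

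Among 21 tested genes for other sensors and enzymes acting on bacterial products, none passed, and the median was 0.02. The lysozyme genes Lyz1 and Lyz2, near copies of each other whose reads could be split between them, had log2 fold changes of -0.78 and -0.46 (adjusted p = 0.409 and 0.445, edgeR). Aoah, which removes acyl chains from LPS, had one of 0.53 (adjusted p = 0.478, edgeR). Of 26 NF-kB targets that LPS induces, 12 were tested and none passed with edgeR, with a median of 0.36. With DESeq2, 1 (Zfp36) passed as higher, where 1.06% of all genes did. The other 14 targets, among them Tnf, Il6, Il1b, Ccl2, Ptgs2 and Nos2, were below the filter and are not in that median. Il6 had 6, 7 and 6 counts in control mice and 28, 52 and 2 in diseased-BWF1 mice. Tnf had 4, 5 and 3 counts against 6, 8 and 13, and Il1b had 2, 10 and 2 against 2, 7 and 0. Ccl2 had 2, 2 and 1 counts against 10, 1 and 1, and Ptgs2 and Nos2 had at most 2 in a library. Il1a, for interleukin-1 alpha, stood at -1.09 on the log2 scale (adjusted p = 0.17, edgeR), Zfp36, for an RNA decay factor, at 1.18 (adjusted p = 0.219 with edgeR and 0.0259 with DESeq2), and Nfkbiz, for a nuclear NF-kB regulator, at 0.57 (adjusted p = 0.289, edgeR).

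Of 20 genes for acute-phase and secreted defence proteins, the class that LBP belongs to, 10 were tested. With edgeR only Hp passed, and it was higher, where 0.400% of all genes passed as higher. The median log2 fold change of those tested was 0.42. It leaves out low members of the list such as Saa1, Saa2 and Hpx, which the filter removed. With DESeq2, where 1.06% of all genes passed as higher, 5 genes of the list did (Hp, Orm1, Orm2, C3 and F7), and Orm2 was not among the 10 tested with edgeR. Hp, for the haemoglobin-binding protein haptoglobin, had 189, 160 and 281 normalized counts in control mice and 726, 739 and 1019 in diseased-BWF1 mice (log2 fold change 1.98, adjusted p = 0.0192, edgeR). Without control mouse 2, or without any 1 of the diseased-BWF1 mice, 0 genes of this list passed. Orm1, for an acid glycoprotein of serum, had 1, 0 and 1 counts in control mice and 15, 81 and 27 in diseased-BWF1 mice (adjusted p = 0.0533 with edgeR and 0.000254 with DESeq2), and it passed the filter through the diseased-BWF1 mice alone. C3, the central complement protein, had 2208, 1362 and 1238 normalized counts in control mice and 3940, 3525 and 3088 in diseased-BWF1 mice (log2 fold change 1.13, adjusted p = 0.0859 with edgeR and 0.000448 with DESeq2). These 5 genes are also in the study's list from the same libraries, so they are not independent evidence of a direction for this class.

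**Figure D4:**
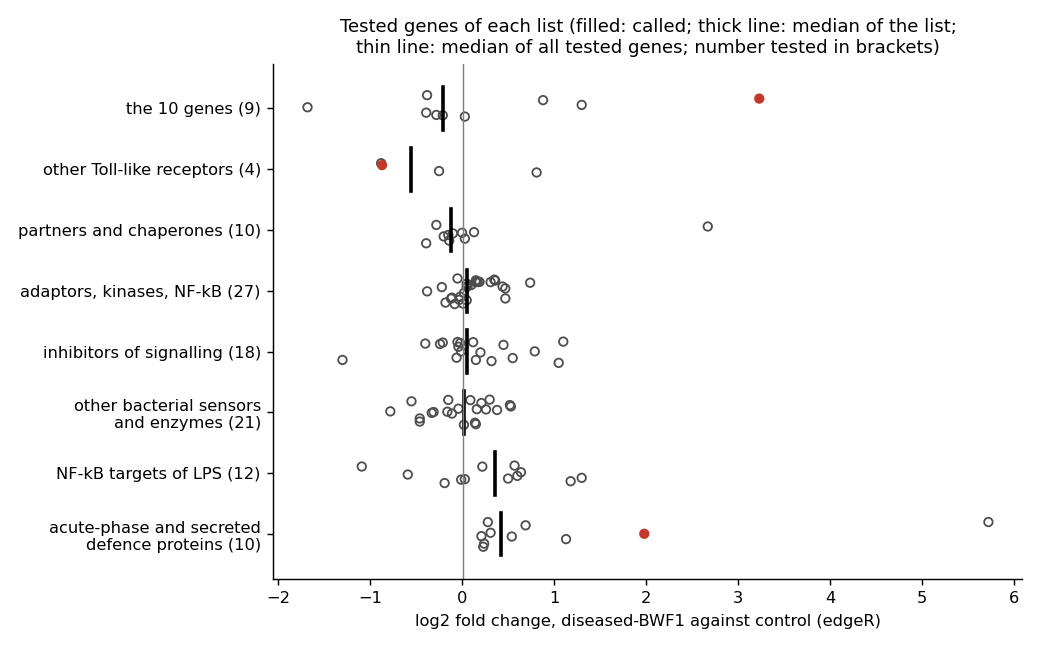
Log2 fold change of diseased-BWF1 against control mice (x axis, edgeR) of the tested genes among the 10 genes and in each of 7 lists, 1 point for each gene, filled where the gene passed the test. Filled points are Pglyrp1 (3.23), Tlr8 (-0.87) and Hp (1.98), and the list medians (thick lines) lie between -0.56 and 0.42.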

How the data were processed

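The 10 genes and the gene lists were chosen with earlier results of these data known. The authors deposited estimated counts, as whole numbers, for 107193 RefSeq records in each of 6 libraries (KAPA stranded mRNA libraries, paired reads of 75 bases). The submitters' processing notes name Salmon 0.8.0, DESeq2 and GRCm38.p6. By accession, 45754 records matched the annotation with the same version and 40712 with another version, and 20727 were left out as unmatched. The deposited counts were summed over the records of each of 32879 genes. Groups were tested with edgeR 4.0.16 in R 4.3.3 (filterByExpr, TMM, glmQLFit, glmQLFTest) over 10505 genes, with Benjamini-Hochberg adjustment, and a gene passed at an adjusted p under 0.05 and at least 1.5-fold. The standard error is the log2 fold change divided by the square root of F. Normalized counts used the size factors of DESeq2 1.42.0, and the fits were tested on simulated data. An exact two-sided permutation test over mice cannot go below p = 0.1 with 3 mice in each group. Levels per length used the longest GENCODE transcript paired with each gene, because record lengths were not used here. No pair of libraries differed by less than 9.56 times the sampling variance. The text names the 10 genes, Ly86, Pglyrp2 to Pglyrp4, Mrc1 and Adgre1, and in each list the genes that passed, filled up to 3 by the smallest p. Tlr3, marker genes and untested targets named outside this rule were chosen after their values were seen.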

Additional observations from a re-analysis of the deposited data

How the results depend on the processing

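Under every alternative with a value for the gene, Pglyrp1, Lbp, Cd14 and Tlr5 kept a positive log2 fold change, and Ly96, Tlr1 and Tlr4 a negative one. Tlr5 had no value with curated records alone or with at least 10 counts in every library, and Pglyrp1 none with the latter. Of the 10 genes, 2 passed as higher with DESeq2 (Pglyrp1 and Lbp) and with no low-count filter. None passed with at least 10 counts in every library, a filter that drops Pglyrp1, and 0 passed with curated records alone (Pglyrp1 3.23, adjusted p = 0.0595, edgeR). With 1 mouse left out, 0 to 1 passed as higher. As lower, 1 passed with DESeq2 (Tlr1). Tlr2 changed sign with curated records alone (-0.02), with the replicate block (-0.06), with age as a covariate (-0.00), and with 1 mouse left out ranged from -0.43 to 0.22. Tlr6 ranged from -0.57 to 0.06 and Cd180 from -0.64 to 0.04 with 1 mouse left out.

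Over all genes, 42 were higher and 86 lower. These counts were 128 and 242 with DESeq2, 89 and 170 with no filter, 27 and 57 with at least 10 counts in every library, and 9 and 7 with curated records alone. With 1 mouse left out they were 11 to 22 and 10 to 29, and age as a covariate gave 53 lower. The cause of these shifts was not tested, other than that fewer mice or records entered some fits. In the lists, the call of 1 other Toll-like receptor as lower became 0 with the replicate block, with age as a covariate and with any mouse left out (0 to 0). Partners higher became 1 with DESeq2 and with no filter. Inhibitors lower became 1 with DESeq2 and with no filter, and 0 to 1 with a mouse left out. NF-kB targets higher became 1 with DESeq2. Acute-phase genes higher became 5 with DESeq2, 4 with no filter and 0 to 1 with a mouse left out.

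Replicate numbers are shared between the groups, but the labels tie them to no animal or batch. Deviations of same-numbered libraries correlated at 0.12, 0.01 and 0.16, and not every library correlated best with its own number. With the replicate block, 18 genes were higher and 20 lower, and Pglyrp1 still passed (3.17, adjusted p = 0.0475, edgeR). Few counts lie behind Tlr5 in all mice and Pglyrp1 in control mice, which limits the precision of those levels.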
